A study of Arabidopsis thaliana with 8 samples.

Results

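COR15A, LTI30 and HIS1-3 are 3 stress-inducible genes of Arabidopsis thaliana, taken here as every probe set whose platform gene symbol is one of these names. Each has 1 probe set, so the set holds 3 of the 13356 genes that the platform table names through a probe set of 1 gene. Plants of 4 lines, taken whole, were raised in sterile sand fed with Long Ashton nutrient solution at 1 or 12.5 mM CaCl2, and total RNA of each line and dose was measured on 1 ATH1 array, 8 arrays in all. Of the lines, 2 are laboratory plants, labelled calcicole and calcifuge, and 2 are wild ecotypes, labelled by a high or a low soil pH. Calcicoles are plants of chalk and limestone soils, which calcifuges do not tolerate. All plants shared a growth room at 22 °C with 10-hour days and daily watering, and the labels name no cold or drought treatment. The accession behind each line and the plants per array are not given in the labels.

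COR15A (AT2G42540) encodes a small protein of the chloroplast stroma that protects membranes during freezing, and it is a classic target of the CBF transcription factors, which are induced by cold. LTI30 (AT3G50970, also XERO2) encodes a dehydrin, a disordered protein of the late embryogenesis abundant class that binds membranes in cells losing water. HIS1-3 (AT2G18050) encodes a short variant of linker histone H1, the histone that sits on the DNA between nucleosomes, and it is known for induction by drought and abscisic acid. The genes therefore differ in role: COR15A and LTI30 are protectants of membranes, and HIS1-3 is a chromatin protein. In RNA from whole plants, fewer cells of a type and less RNA per cell cannot be told apart.

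Levels are given as scaled MAS5 signal intensities. Differences are on the log2(signal + 2.507) scale, with the standard error (SE) of a limma fit. Array medians ranged from 42.3 to 47.8. Of the 10 shoot markers listed (photosynthesis genes), 5 are named in the platform table through a probe set of 1 gene. Of the 9 root markers, 2 are named, the root beta-glucosidase gene PYK10 and the expansin gene EXPA7. EXPA7, at 12.1 to 33.8, lay under the median of every array and was left out of the tests for low signal. The summed signals of the markers moved with the groups. The shoot sum was 12351 and 13825 in the lab lines at 12.5 mM (calcicole, calcifuge), 16518 and 19442 in these lines at 1 mM, and 18207 to 22134 in the wild lines. The root sum was 70.8 in the lab calcicole at 1 mM, 842 in the lab calcifuge at 12.5 mM and between 158 and 356 on the other 6 arrays. This sum is mostly PYK10, which was 830 in the lab calcifuge at 12.5 mM. EXPA7 was at its lowest on that array, 12.1, against 33.5 in the same line at 1 mM. The part of these shifts in the results on the 3 genes was not tested.

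COR15A had a high and even signal at the low dose and was higher at 12.5 mM in each line. At 1 mM its signal was 1641 and 1706 in the laboratory lines (calcicole, then calcifuge), and 2013 and 1728 in the wild ecotypes of high and low soil pH. At 12.5 mM it was 3939, 2277, 2229 and 3105 in the same order. All 4 arrays at 12.5 mM thus lay above all 4 at 1 mM, a separation seen at 1.34% of the 13647 tested probe sets. The 1 mM arrays spanned 1.23-fold and the 12.5 mM arrays 1.77-fold, so the lines stood further apart at the high dose.

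LTI30 had a much wider range, from 107 to 2252, or 21.1-fold over the 8 arrays. From 1 to 12.5 mM the lab calcicole went from 472 to 2252, the lab calcifuge from 309 to 609, the wild high soil pH ecotype from 278 to 165 and the wild low soil pH ecotype from 107 to 235. The wild high soil pH ecotype was alone in having less LTI30 signal at the high dose. The 4 lab arrays, from 309 to 2252, lay above the 4 wild arrays, from 107 to 278, without overlap, which was the case at 8.25% of tested probe sets.

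HIS1-3 ranged from 49.4 to 1130, or 22.9-fold. From the low to the high dose it went from 647 to 1130 (lab calcicole), 49.4 to 322 (lab calcifuge), 199 to 297 (wild high soil pH) and 144 to 189 (wild low soil pH). Both lab calcicole arrays lay above the 6 others, whose highest value was 322, and 11.7% of tested probe sets had this arrangement. The lab calcifuge moved from the lowest of the 8 arrays at 1 mM to the third highest at 12.5 mM. Each of the 3 genes had its highest signal in the lab calcicole at 12.5 mM, an array that was the highest of the 8 at 16.8% of tested probe sets.

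**Figure D1:**
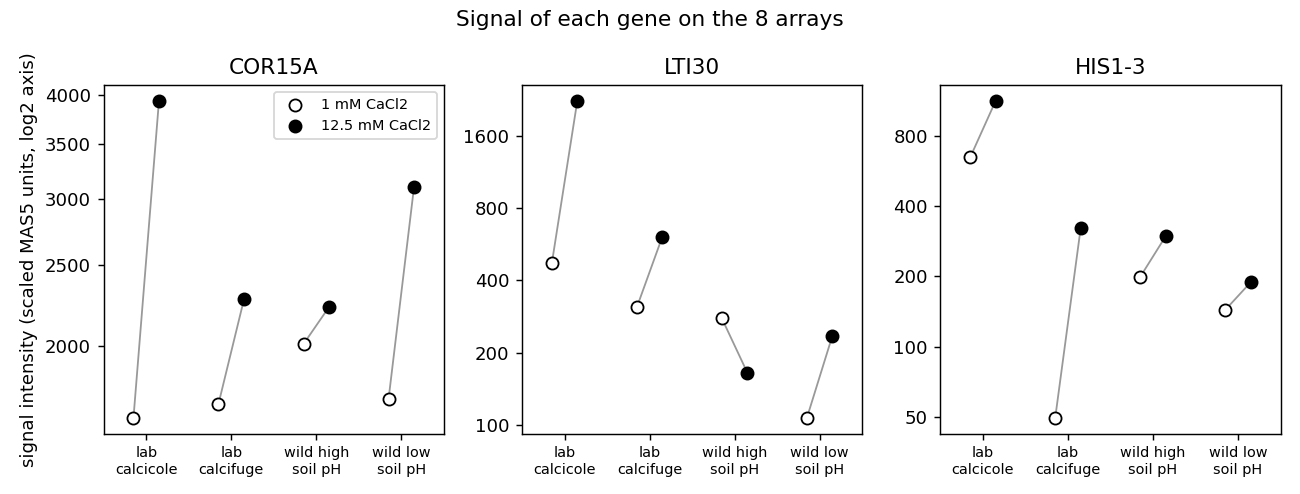
Signal intensity (scaled MAS5 units, log2 axis with its own range in each panel) of COR15A, LTI30 and HIS1-3 in the 4 lines, with open circles for 1 mM and filled circles for 12.5 mM CaCl2, 1 array each; grey lines join the arrays of a line. COR15A and HIS1-3 were higher at 12.5 mM in 4 of 4 lines and LTI30 in 3 of 4.

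The first comparison asked how the genes respond to the higher CaCl2 supply over the 4 lines. The differences were 0.67 ± 0.21 for COR15A (1.59-fold, limma adjusted p 0.243), 0.90 ± 0.41 for LTI30 (1.87-fold, adjusted p 0.414) and 1.1 ± 0.36 for HIS1-3 (2.15-fold, adjusted p 0.264). None of the 3 passed the threshold of an adjusted p under 0.05 in limma, which 0.0147% of tested probe sets passed. An unadjusted p under 0.05 was reached by 2 of the 3, COR15A and HIS1-3, and by 13.0% of tested probe sets. The direction was shared by all 4 lines for COR15A and HIS1-3, as at 10.6% of tested probe sets. With the signs of the 4 line changes flipped in all ways, an exact two-sided permutation test gave p 0.125 for each, its smallest possible value, and 0.25 for LTI30.

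The size of the change differed from line to line, and it was highest in the lab calcicole for COR15A and LTI30. For COR15A the log2 change was 1.26 in the lab calcicole, 0.84 in the wild low soil pH ecotype, 0.42 for the lab calcifuge and 0.15 for the wild high soil pH ecotype. For LTI30 it was 2.25, 1.12, 0.97 and -0.74 in the same order of lines. These are changes between single arrays with no replicate within a line. Over the lines the LTI30 difference of 0.90 became 0.45 without the lab calcicole and 1.45 without the wild high soil pH ecotype, and passed in neither. In the lab calcicole 0.542% of tested probe sets had a change at least as high as that of LTI30, and 1.91% had one at least as high as that of COR15A.

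HIS1-3 had its highest change in another line. Its log2 change was 2.64 in the lab calcifuge, a 6.52-fold ratio of signals, against 0.80 for the lab calcicole, 0.57 for the wild high soil pH ecotype and 0.39 for the wild low soil pH ecotype. In the lab calcifuge, a line picked in the same way, 0.191% of tested probe sets had a change at least as high. Without this line the mean difference of HIS1-3 was 0.59 (adjusted p 0.253), against 1.1 with it.

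Whether the response differed between kinds of line was asked with interaction terms, where none of the 3 genes and 0% of tested probe sets passed in limma. None of the 3 had an unadjusted p under 0.05, which 5.90% of tested probe sets had for soil class and 5.03% for origin. Calcicole-class lines (lab calcicole and wild high soil pH) minus calcifuge-class lines gave 0.07 ± 0.44 for COR15A, -0.30 ± 0.90 for LTI30 and -0.83 ± 0.70 for HIS1-3. The 95% intervals ran from -0.99 to 1.14, from -2.47 to 1.88 and from -2.53 to 0.87. Lab minus wild lines gave 0.34 ± 0.42 for COR15A (-0.67 to 1.35), 1.42 ± 0.69 for LTI30 (-0.24 to 3.08) and 1.24 ± 0.59 for HIS1-3 (-0.17 to 2.66). The intervals are wide enough to hold differences of more than 2-fold for each gene.

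Of the 3 genes, LTI30 and HIS1-3 passed in some line comparisons and COR15A in none. The line comparisons also called more of all tested probe sets, from 0.330% to 15.9%, than the dose did (0.0147%). HIS1-3 was higher in the lab calcicole than in the lab calcifuge by 2.72 ± 0.50 (6.6-fold, limma adjusted p 0.0318, higher at both doses), and was the only one of the 3 to pass, against 4.53% of tested probe sets. This difference had been seen before the gene was chosen and is given as a description. It was 13.1-fold at 1 mM (647 against 49.4) and 3.51-fold at 12.5 mM (1130 against 322). The call was lost without the lab calcicole array at 1 mM (adjusted p 0.162) or at 12.5 mM (0.110) and with no filter on low signals (0.120). Beside it, the root marker PYK10 was lower in the lab calcicole, with a difference of -2.14 ± 0.41 (limma adjusted p 0.0350). EXPA7, the other root marker, was under the filter and turned with the dose. It was 21.6 in the lab calcicole against 33.5 in the lab calcifuge at 1 mM, and 21.6 against 12.1 at 12.5 mM. All 5 shoot markers were below 0 for this pair, with a median of -0.26, and none passed. The part of these markers in the HIS1-3 difference was not tested. LTI30 differed by 1.24 ± 0.59 (adjusted p 0.253) and COR15A by 0.37 ± 0.29 (adjusted p 0.493) between the lab lines.

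Between the wild lines, high minus low soil pH, none of the 3 genes passed in limma or had an unadjusted p under 0.05, against 0.330% of tested probe sets past the adjusted threshold and 9.00% at the unadjusted p. LTI30 differed by 0.43 ± 0.59, HIS1-3 by 0.56 ± 0.50 and COR15A by -0.13 ± 0.29. The interval for COR15A ran from -0.81 to 0.55. For LTI30 the sign of the difference turned with the dose, 278 against 107 at 1 mM and 165 against 235 at 12.5 mM.

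Lab lines were then set against wild lines. LTI30 was higher in the lab lines by 1.85 ± 0.41 (3.60-fold, limma adjusted p 0.0284, 2 lines of each origin), and was the only one of the 3 to pass, against 15.9% of tested probe sets. The error of this fit comes from line and dose within 4 lines, so the p concerns these lines and not lab and wild plants in general. The call was lost on leaving out the array of the lab calcicole (adjusted p 0.0785), the lab calcifuge (0.0731), the wild high soil pH ecotype (0.0584) or the wild low soil pH ecotype (0.0865) at 12.5 mM, that of the wild low soil pH ecotype at 1 mM (0.0848), or the whole lab calcicole (0.116) or wild low soil pH ecotype (0.122). With no filter the adjusted p was 0.0985. The direction held in each of these, between 1.23 and 1.92. Beside it, the shoot marker PRK, the phosphoribulokinase of carbon fixation, was lower in the lab lines, with a difference of -1.0 ± 0.17 (adjusted p 0.0131). It was the only 1 of the 5 shoot markers to pass. RCA (-0.45), LHCB4.1 (-0.44) and PSAE-1 (-0.28) were below 0 and LHCB4.2 (0.12) was above. The part of these shoot markers in the LTI30 difference was not tested.

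HIS1-3 had a lab minus wild difference of 0.72 ± 0.36 (adjusted p 0.203), which rested on which lab line was used. It was 2.08 (adjusted p 0.00224) without the lab calcifuge and -0.64 (adjusted p 0.428) without the lab calcicole. Without the lab calcifuge array at 1 mM alone it was 1.23 (adjusted p 0.0105). COR15A differed by 0.02 ± 0.21 (adjusted p 0.970), with an interval from -0.46 to 0.50, so a lab to wild difference of 2-fold lay outside it.

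Ordered by mean log2 signal over both doses, LTI30 ran from the lab calcicole (10.01) over the lab calcifuge (8.77) and the wild high soil pH ecotype (7.76) to the wild low soil pH ecotype (7.33). No neighbours in this order differed past the threshold. The ends did, by 2.68 ± 0.59 (6.42-fold, limma adjusted p 0.0375), a call that was lost without the array of either line at either dose (adjusted p 0.0529 to 0.181) and with no filter (0.130). The lab calcicole minus the wild high soil pH ecotype gave 2.26 ± 0.59 (adjusted p 0.0540).

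HIS1-3 had another order, with the lab calcicole at 9.74, the wild high soil pH ecotype at 7.94, the wild low soil pH ecotype at 7.38 and the lab calcifuge at 7.02. The lab calcicole and its nearest neighbour differed by 1.80 ± 0.50 (adjusted p 0.0648), and the other neighbours did not differ past the threshold. The lab calcicole minus the wild low soil pH ecotype was 2.36 ± 0.50 (adjusted p 0.0360), again lost without the array of either line at either dose (adjusted p up to 0.181) and with no filter (0.126). For that pair of lines 2 of the 3 genes passed, LTI30 and HIS1-3, against 8.54% of tested probe sets. Beside them PRK differed by -1.19 ± 0.24 (adjusted p 0.0297) between these lines, again the only 1 of the 5 shoot markers to pass. RCA (-0.45), LHCB4.1 (-0.62) and PSAE-1 (-0.29) were below 0 there and LHCB4.2 (0.60) was above. The part of these shoot markers in the differences of both genes was not tested. For the lab calcicole against the wild high soil pH ecotype (9.36% of tested probe sets), and for the lab calcifuge against the wild high (5.77%) or low soil pH ecotype (2.46%), limma called 0 of the 3. An unadjusted p under 0.05 was reached there by LTI30 and HIS1-3 in the first pair (29.3% of tested probe sets), by none in the second (24.3%) and by LTI30 in the third (21.6%). Some leave-outs made calls here. HIS1-3 passed for the lab calcicole minus the wild high soil pH ecotype without the lab calcifuge array at 1 mM (1.80, adjusted p 0.00693), that at 12.5 mM (1.80, 0.00701) or both (1.80, 0.00649). LTI30 passed for this pair without the wild high soil pH array at 1 mM (3.35, adjusted p 0.0210). HIS1-3 passed for the lab calcifuge minus the wild high soil pH ecotype without the lab calcifuge array at 12.5 mM (-1.95, adjusted p 0.0301).

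COR15A held close to a single level in the 4 lines, with means of 11.31 in the lab calcicole, 11.18 in the wild low soil pH ecotype, 11.05 in the wild high soil pH ecotype and 10.95 in the lab calcifuge. Its largest line difference was 0.37 ± 0.29, and the 95% intervals of the 6 pairs lay within -0.91 and 1.05.

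**Figure D2:**
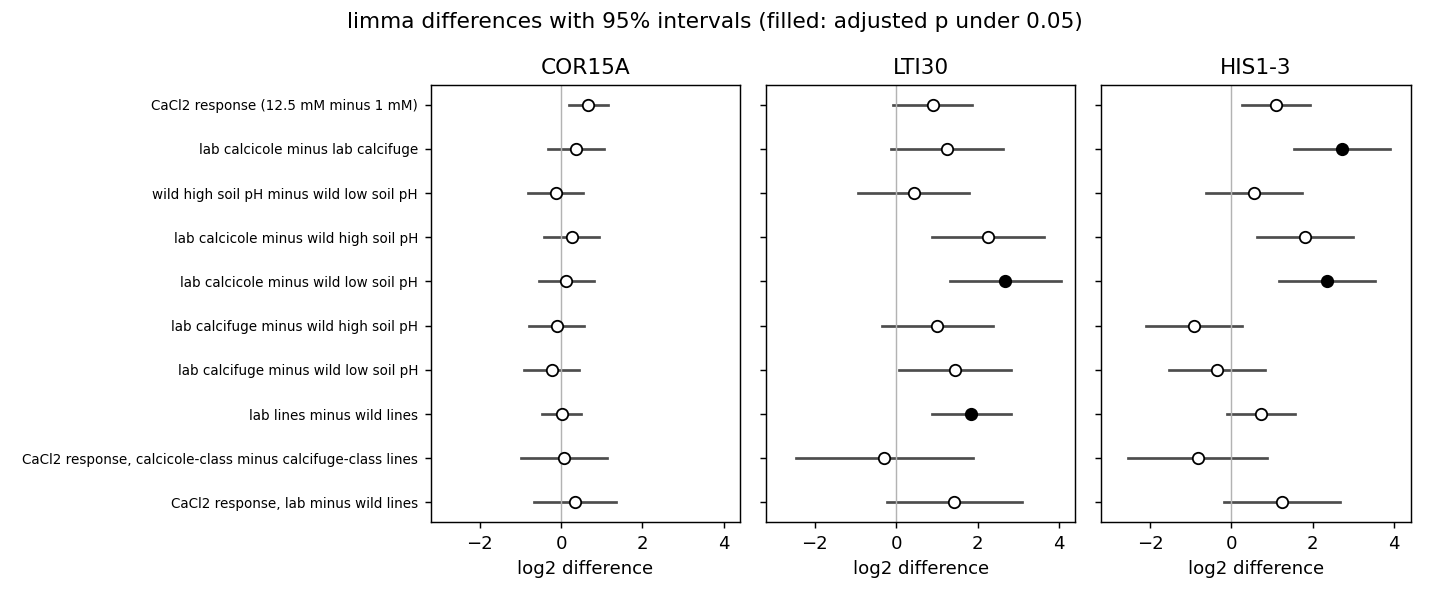
Log2 difference (x axis) of each gene in 10 comparisons (y axis), with 95% intervals from limma; filled points have an adjusted p under 0.05. COR15A had no filled point, LTI30 had filled points for the lab calcicole against the wild low soil pH ecotype and for lab against wild lines, and HIS1-3 for the lab calcicole against the lab calcifuge and against the wild low soil pH ecotype.

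The genes around these 3 in the cold, drought and abscisic acid pathways, and the other linker histone genes, were taken from lists of 123 loci, of which 17 are named on the array and 12 passed the filter, the 3 genes included. Of the 9 others tested, 0 passed the threshold in limma in any of the 10 comparisons. Of all tested probe sets, from 0% (both interactions) to 15.9% (lab minus wild lines) passed, and 0.0147% did for the CaCl2 response. For the CaCl2 response, 7 of the 9 had a difference above 0 and 2 below, with a median of 0.12 against 0.01 over all tested probe sets. For lab minus wild lines 6 of the 9 were above 0, with a median of 0.19 against 0.02 over all. The share of all tested probe sets above 0 was not counted for either comparison. The 9 include H1.1, H1.2 and HON4, from the list of linker histone and related genes. The core abscisic acid genes, 36 in the list, have no member named here.

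COR15B, the tandem neighbour and close relative of COR15A, is the nearest comparison for it. With the dose it went from 312 to 339 (lab calcicole), 770 to 534 (lab calcifuge), 566 to 786 (wild high soil pH) and 452 to 763 (wild low soil pH). At 12.5 mM COR15B was thus lowest in the lab calcicole, where COR15A was highest, and at 1 mM both were lowest there. The COR15B change in the lab calcicole was 0.12 against 1.26 for COR15A. For COR15B the CaCl2 difference was 0.20 ± 0.22 (adjusted p 0.753) and the lab calcicole minus lab calcifuge difference was -0.97 ± 0.31 (adjusted p 0.120). Binding of the probes of either gene to the other's transcript was not tested.

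Among other dehydrins and late embryogenesis abundant genes, COR47, a dehydrin of the acidic class, went from 813 to 1430 (lab calcicole), 807 to 1283 (lab calcifuge), 859 to 532 (wild high soil pH) and 781 to 634 (wild low soil pH). Its changes were above 0 in both lab lines and below 0 in both wild lines, as for LTI30 in all but the wild low soil pH ecotype, and its lab minus wild difference in response was 1.23 ± 0.31 (adjusted p 0.988). HIRD11, a small dehydrin that binds metal ions, stayed between 2039 and 3611 on all arrays, with a CaCl2 difference of 0.05 ± 0.15. AT4G38410, listed as a dehydrin, was between 18.5 and 52.0.

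LEA4-5, whose protein protects enzymes from drying, was under the filter and not tested, and its low signals are close to the pseudocount. It went from 1.65 to 117 (lab calcicole), 2.23 to 12.6 (lab calcifuge), 25.5 to 26.6 (wild high soil pH) and 7.23 to 63.3 (wild low soil pH). The other 4 genes of this class under the filter did not exceed 23.3 on any array.

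ALDH7B4, an aldehyde dehydrogenase gene induced by drought, shared its direction with COR15A and HIS1-3 in all 4 lines. It went from 750 to 1796 (lab calcicole), 560 to 674 (lab calcifuge), 756 to 882 (wild high soil pH) and 455 to 999.8 (wild low soil pH). Its CaCl2 difference was 0.72 ± 0.22 (adjusted p 0.242). COR15A, LTI30, LEA4-5 and ALDH7B4 had the same order of lines by CaCl2 change, with the lab calcicole first, then the wild low soil pH ecotype, the lab calcifuge and the wild high soil pH ecotype. The order is that of COR15A itself, which has it by definition, and LEA4-5 was under the filter. None of the other pathway genes named here had it, HIS1-3, COR15B, COR47 and HIRD11 among them. The share of all tested probe sets with this order was not counted, so how common it is on these arrays is not known. The order was noticed in the data and is given with no test.

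ZAT10 (STZ), a zinc finger repressor of the cold and drought response, was the only member named here of the list of CBF and DREB regulators. It went from 690 to 136 (lab calcicole), 227 to 253 (lab calcifuge), 371 to 29.1 (wild high soil pH) and 349 to 64.7 (wild low soil pH). It was thus lower at 12.5 mM in 3 of 4 lines, with a difference of -2.03 ± 0.51 over all 4 (adjusted p 0.183), where COR15A and HIS1-3 were higher in each.

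The other linker histone genes varied far less than HIS1-3. H1.1 (AT1G06760) and H1.2 (AT2G30620), the standard linker histones, spanned 296 to 457 and 269 to 604 over the 8 arrays, or 1.54-fold and 2.24-fold, against 22.9-fold for HIS1-3. HON4, a gene of a related DNA-binding protein, spanned 98.4 to 190, or 1.93-fold. Between the lab lines H1.1 differed by -0.27 ± 0.21 and H1.2 by -0.49 ± 0.23 (adjusted p 0.490 and 0.245). The CaCl2 differences were -0.03 ± 0.15 for H1.1, 0.25 ± 0.16 for H1.2 and 0.10 ± 0.15 for HON4.

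**Figure D3:**
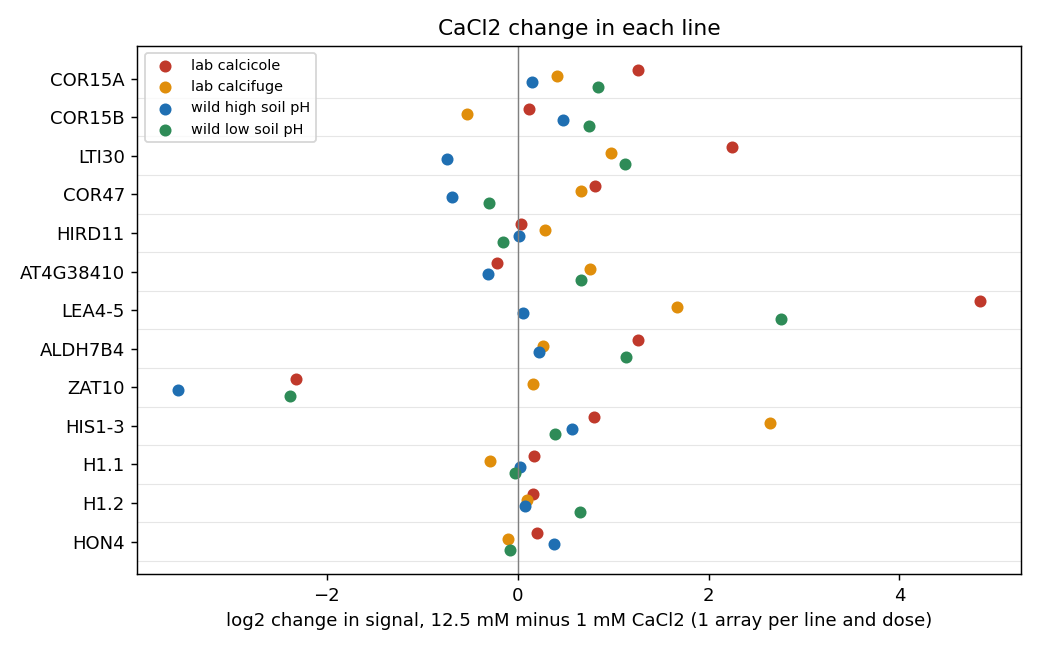
Log2 change in signal from 1 to 12.5 mM CaCl2 (x axis) of COR15A, LTI30, HIS1-3 and 10 other genes of the lists (y axis), with a point for each of the 4 lines, 1 array per line and dose. LEA4-5 was under the filter and had changes from 0.05 to 4.85; ZAT10 had changes from -3.56 to 0.16.

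The profiles of the 3 genes over the arrays were alike only in part. Over the 8 arrays, which share lines and doses, Pearson's r was 0.67 between LTI30 and HIS1-3, 0.60 between COR15A and LTI30 and 0.52 between COR15A and HIS1-3, with Spearman's rho of 0.67, 0.24 and 0.36. Without the 2 arrays farthest from the median of the first gene, r was 0.29, 0.13 and 0.25, so these values rest on those arrays. They are descriptions with no test.

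Among 7288 other tested probe sets naming 1 gene, the profile most like that of COR15A was ATSPS4F, a sucrose-phosphate synthase gene (r = 0.98 over 8 arrays), followed by AT1G55460 (0.95), AT2G17280 (0.94), AT3G20300 (0.93) and the cyanase gene CYN (0.93). ATSPS4F spanned 150 to 374. The profiles most like that of LTI30 were AT4G19390 and AT1G23960 (r = 0.97 and 0.96), SDH1-1, a subunit gene of mitochondrial succinate dehydrogenase (0.96), NTMC2T6.1 (0.96) and the splicing factor gene U2AF35B (0.96). AT4G19390 spanned 117 to 727.

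For HIS1-3 they were AT1G80130 (r = 0.97), AT5G58740 (0.97), AT4G27120 (0.96), AT5G03560 (0.95) and ISU1, a scaffold gene of iron-sulfur cluster assembly (0.95). AT1G80130 had the widest range of these, 214 to 3392. With 8 arrays and 7288 genes compared, high correlations are found for any profile, and none of the 3 genes was among the 5 nearest of another. LTI30 ranked 507th and HIS1-3 776th by likeness to COR15A.

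**Figure D4:**
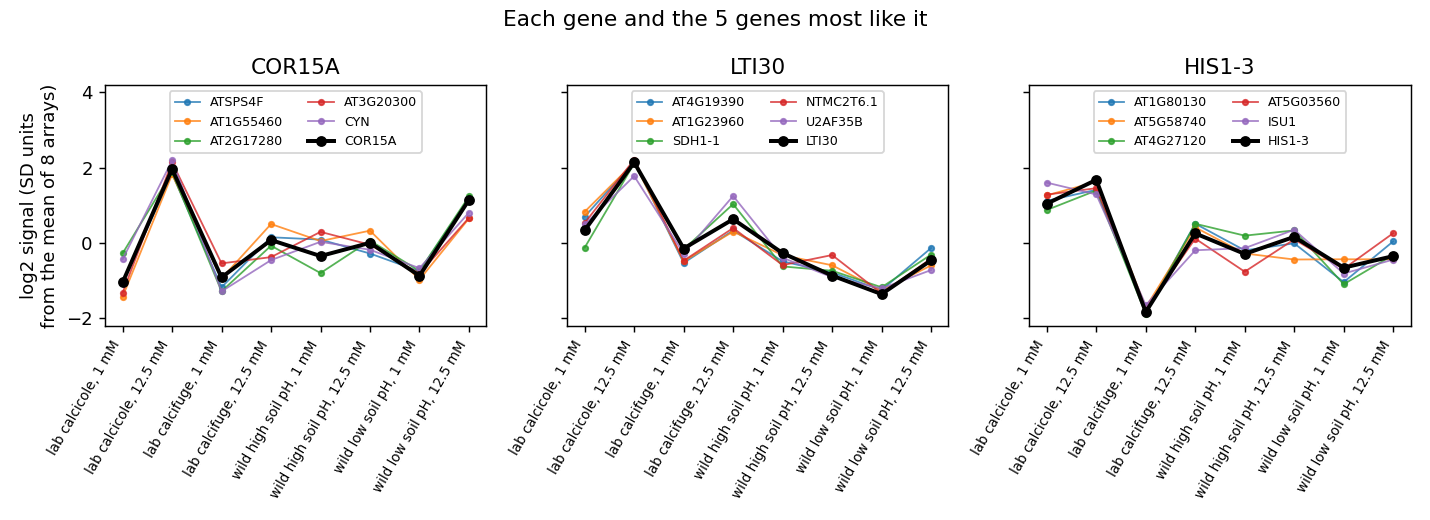
Log2 signal in SD units from each gene's mean over the 8 arrays (y axis) for COR15A, LTI30 and HIS1-3 (black) and the 5 genes with the highest Pearson r with each (colours), by line and CaCl2 dose (x axis); lines join the arrays of a gene and imply no order. The black profiles share a peak in the lab calcicole at 12.5 mM and differ elsewhere, with HIS1-3 lowest in the lab calcifuge at 1 mM and LTI30 lowest in the wild low soil pH ecotype at 1 mM.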

How the data were processed

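Total RNA of whole plants was hybridised to 8 ATH1 arrays, 1 for each of 4 lines at 2 CaCl2 doses. The authors deposited 1 MAS5 signal intensity per probe set, per the submitters' processing notes; the version and settings are not given in the sources used here. The intensities are linear, and after trimming 2% from each end every array had a mean of about 100, so they were not scaled again.

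Of 22810 probe sets, 64 controls were left out. Signals were raised by 2.507 (their 10th percentile over all arrays) and log2-transformed, and dropping the dimmest 40% by mean left 13647 for testing. The platform table names 13513 probe sets by 1 gene. COR15A, LTI30 and HIS1-3 have 1 probe set each, and all passed this filter.

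Line, dose and interaction contrasts were fitted with limma 3.58.1 in R 4.3.3 over all tested probe sets, with Benjamini-Hochberg adjustment and a threshold of 0.05. The additive model holds line and dose. Residuals measure how far the lines depart from a common dose effect, and nothing in the labels says how many plants or cultures an array stands for. Beside the 3 genes, pathway genes are named that passed the threshold or had the highest mean signal of their list, and the 5 genes with the highest Pearson correlation with each gene. The 5 pathway genes under the filter, LEA4-5 among them, are named outside this rule.

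The genes and lists were chosen with earlier results of these arrays known. The fit was also run on simulated arrays with planted changes. These had independent errors and, unlike the data, no line differences beyond those planted, so the run is not used as support here. Alternatives changed the scaling, pseudocount, filter, variance model and line term, or left out an array or a line. Figures used matplotlib 3.10.9. Precision is limited by the number of arrays.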

Additional observations from a re-analysis of the deposited data

Results flagged for a closer look

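Some values moved opposite ways in paired lines or doses, with 1 array on each side, so these differences were not tested for the pair itself. LTI30 changed with CaCl2 by -0.74 in the wild high soil pH ecotype and by 1.12 in the wild low soil pH ecotype. Its wild high minus low soil pH difference was accordingly 1.36 at 1 mM and -0.51 at 12.5 mM. COR15A had a lab calcicole minus lab calcifuge difference of -0.056 at 1 mM and 0.79 at 12.5 mM. Its wild high minus low soil pH difference was 0.22 at 1 mM and -0.48 at 12.5 mM.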

How the results depend on the processing

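All arrays carry the same replicate number, which therefore cannot serve as a block. The doses of a line were paired through the line term. Of 507 values over 30 results, 436 kept their direction and side of the threshold. The CaCl2 differences of the 3 genes, none past the threshold, kept their direction under each alternative run and passed under none. With no filter, an intensity trend or no line term these CaCl2 differences could not move, as with 0.90 for LTI30 in each. Leaving out either array of a line gave the same CaCl2 difference, as with 0.45 for LTI30 without either lab calcicole array. The 507 values thus hold repeats, and their count does not measure independent checks. The alternatives for the lab calcicole or calcifuge against a wild line were chosen after seeing the data. With each array centred on its median, COR15A was at -0.025 for lab minus wild lines. With quantile normalisation it was at 0.11 for the lab calcifuge minus the wild high soil pH ecotype and at -0.011 for the soil class difference in response. With a pseudocount of 16, LTI30 (2.19) and HIS1-3 (1.75) passed for the lab calcicole minus the wild high soil pH ecotype, as did LTI30 (2.26) with an intensity trend. With no filter the differences did not move but 4 calls were lost, with larger standard errors and more probe sets in the adjustment, whose parts were not separated: HIS1-3 between the lab lines (2.72), LTI30 (2.68) and HIS1-3 (2.36) between the lab calcicole and the wild low soil pH ecotype, and LTI30 between lab and wild lines (1.85).

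Leaving out an array or a line gave these ranges, where the lone array of a line is assumed to vary like the others. The CaCl2 difference ran from 0.45 to 1.45 (LTI30), 0.47 to 0.84 (COR15A) and 0.59 to 1.34 (HIS1-3). For the lab calcicole minus the lab calcifuge the ranges, in this order of genes, were 0.34 to 2.14, -0.029 to 0.76 and 1.69 to 3.75. For the wild lines they were -0.67 to 1.52, -0.48 to 0.22 and 0.080 to 1.03. For the lab calcicole minus the wild high soil pH ecotype they were 1.16 to 3.35, -0.13 to 0.66 and 1.45 to 2.16. Minus the wild low soil pH ecotype they were 1.78 to 3.58, -0.26 to 0.53 and 1.88 to 2.84. For the lab calcifuge minus the wild high soil pH ecotype they were -0.084 to 2.11, -0.45 to 0.24 and -1.95 to 0.11, and minus the wild low soil pH ecotype 1.29 to 1.59, -0.40 to -0.065 and -1.39 to 0.66. For lab minus wild lines they were 1.23 to 2.47, -0.18 to 0.21 and -0.64 to 2.08. The soil class difference in response ran from -1.79 to 1.2, from -0.48 to 0.63 and from -1.96 to 0.30, and the lab minus wild difference in response from 0.49 to 2.36, from -0.080 to 0.77 and from 0.32 to 2.16. The cause of these shifts was not tested.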
